A study of Rattus norvegicus with 24 samples.

Results

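Cadherins, protocadherins and integrins are the adhesion receptors by which cells of the striatum and the substantia nigra hold to each other and to the matrix around them. The set described here holds every gene whose symbol names a numbered cadherin, a protocadherin, an integrin alpha subunit or one of the integrin beta subunits numbered up to 8, other than Cdh5 and Itgam, which mark endothelium and microglia. It came to 88 of the 16582 genes measured. They were 17 classical cadherins, 5 other cadherins, 11 non-clustered protocadherins, 34 clustered protocadherins, 14 integrin alpha subunits and 7 integrin beta subunits. The rule uses gene symbols and no measured value.

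The samples were tissue punches from adult male Sprague Dawley rats, read on exon-level microarrays, with 24 arrays from 14 animals in 8 groups of 3. All lesioned rats had received the dopamine neuron toxin 6-hydroxydopamine, and a loss of striatal dopamine above 90% counted as a successful lesion per the labels. Dyskinetic and non-dyskinetic rats were lesioned and given levodopa, the dopamine precursor, daily from 3.5 weeks after the lesion, and they differed in whether abnormal involuntary movements developed. Vehicle rats were lesioned and given vehicle without levodopa, while intact rats were injected with the toxin's saline vehicle alone and given levodopa, so no group was free of both. Lateral striatum and substantia nigra gave 12 arrays each, and 10 of the animals gave both tissues.

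Classical cadherins bind the same or a related cadherin on the neighbouring cell and are tied to actin by catenins. In the brain they sort neurons into nuclei and layers and hold synapses together. The clustered protocadherins are encoded in tandem arrays from which each neuron uses a small selection, so that the combination on its surface marks it against its neighbours. Integrins pair an alpha with a beta subunit and bind laminin, fibronectin and other matrix proteins, or counter-receptors on other cells.

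Values are means of log2 probe set values per gene, so a difference of 1 is a doubling. Fitted differences carry their moderated standard error after the ± sign. Within a tissue 12436 genes were tested with limma over its 12 arrays, and "rose" or "fell" marks a Benjamini-Hochberg adjusted p under 0.05 over all of them. Of the 88 members 78 were tested in striatum and 74 in nigra. The 10 members with values too low to be tested in either tissue were Cdh1, Cdh16, Cdh17, Cdh26, Itga2, Itga4, Itga10, Itgad, Itgax and Pcdhb1. The members rest on 1003 probe sets, with a median of 7 and at most 66 per gene. The 17 members read by 1 probe set were all clustered protocadherins, and Pcdha4 stands for the whole alpha cluster, whose isoforms share 1 gene in the current annotation. At least 1 call was made for 11 members in striatum, for 26 in nigra and for 31 in either. These counts pool the comparisons of a tissue. The share of all genes so called was not computed, so they cannot be set against a background.

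The lesion and the tissues showed in the arrays. Th, which encodes the enzyme that limits dopamine synthesis, fell by 2.62 ± 0.30 in vehicle against intact nigra, and Slc6a3, the dopamine transporter, fell by 2.92 ± 0.36. Lesioned groups did not carry equal dopamine neuron signal: the mean of 6 dopamine neuron markers was 8.97 to 9.44 in vehicle nigra, 9.35 to 10.45 in dyskinetic, 10.17 to 10.49 in non-dyskinetic and 11.79 to 12.01 in intact nigra. Among the nigral vehicle arrays, array 1 read 8.0 for the striatal dopamine receptor gene Drd1, against 6.29 to 6.81 on the other 11, and 10.38 for the striatal phosphoprotein gene Ppp1r1b, against 9.18 to 9.58. Array 3 read 7.81 for the mean of 3 cortical neuron markers, against 5.88 to 6.16 on the other 11, and 9.39 for 6 mural and fibroblast markers, against 8.50 to 8.81. Member counts and some member differences in nigra that use vehicle rats are therefore also given without arrays 1 and 3. Without them 1 vehicle array is left, assumed to vary like the other groups. A call lost there can follow from the smaller number of arrays alone, so the size of the difference is what can be read. Pathway and marker genes in vehicle nigra are given with arrays 1 and 3 included, and were not checked in this way. These are bulk samples, so fewer cells of a type and less RNA per cell cannot be told apart.

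In dyskinetic against non-dyskinetic striatum, 8 of the 78 members tested passed the threshold, where 5.26% of all genes did. Of these 3 rose, against 3.06% of all genes, and 5 fell, against 2.20%. The laminin-binding integrin subunit Itga7 rose most and the classical cadherin Cdh7 fell most. No clustered protocadherin and no integrin beta subunit passed. The median member difference was 0.0091, beside -0.031 for all genes tested.

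Itga7, the alpha subunit of a laminin receptor best known from muscle, read 8.61, 8.35 and 8.04 on the dyskinetic arrays and 7.48, 7.46 and 7.32 on the non-dyskinetic ones. The vehicle arrays read 7.40, 7.52 and 7.31 and the intact arrays 7.09, 7.43 and 7.20. All 3 dyskinetic arrays lay above the other 9. The difference from non-dyskinetic rats was 0.91 ± 0.12 (adjusted p = 0.00049), and 29 of its 32 probe sets were higher. The gene lies at chr7:1944447-1973347 of assembly GRCr8.

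**Figure D1:**
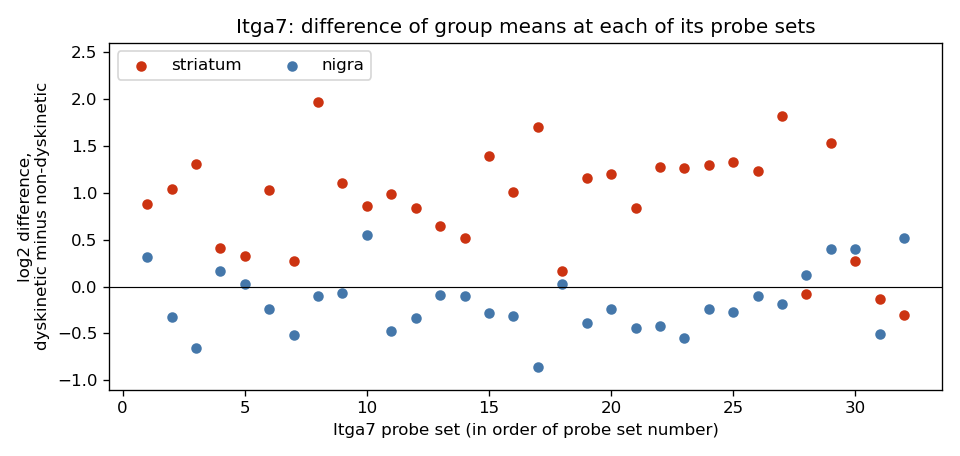
Log2 difference of the group means, dyskinetic minus non-dyskinetic, at each of the 32 probe sets of Itga7 in the order of their numbers, with striatum in red and nigra in blue. In striatum 29 of the 32 points lie above 0, and in nigra 23 lie below it.

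Cdh22, a classical cadherin of the type II class, read 9.17, 9.0 and 8.92 in dyskinetic and 8.53, 8.71 and 8.58 in non-dyskinetic rats, a rise of 0.43 ± 0.079 (adjusted p = 0.0054). The groups did not overlap, and all 14 probe sets were higher. Pcdh7, a non-clustered protocadherin, read 9.50, 9.43 and 9.32 in dyskinetic and 9.02, 9.05 and 9.19 in non-dyskinetic rats, a rise of 0.33 ± 0.087 (adjusted p = 0.036). Its 3 dyskinetic arrays were again the highest of the 12. Of its 5 probe sets 4 were higher, and 1 of them carried much of the rise, with a mean of 9.85 in dyskinetic and 9.06 in non-dyskinetic rats, 8.49 with vehicle and 8.34 in intact rats.

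Cdh7, also a type II cadherin, read 7.31, 7.97 and 8.34 in dyskinetic and 8.74, 8.73 and 8.75 in non-dyskinetic rats. The dyskinetic arrays were spread more widely than the non-dyskinetic ones and did not reach them, but they overlapped the vehicle arrays. The fall was 0.87 ± 0.18 (adjusted p = 0.011), and all 11 probe sets were lower. Cdh19, a type II cadherin known from glial cells, read 6.55, 6.61 and 6.69 against 7.12, 6.87 and 7.16 and fell by 0.43 ± 0.10 (adjusted p = 0.017). Cdh7 and Cdh19 lie near each other in the genome, at chr13:27186223-27336076 and chr13:28450361-28561932 of GRCr8. Cdh13, an unusual cadherin that is held to the membrane by a lipid anchor and has no cytoplasmic tail, read 10.43, 10.56 and 10.48 against 10.90, 10.82 and 10.89 and fell by 0.38 ± 0.073 (adjusted p = 0.0072), with all 15 probe sets lower.

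Pcdh20, a non-clustered protocadherin read by 2 probe sets, read 7.21, 7.57 and 7.84 in dyskinetic and 8.12, 8.01 and 8.09 in non-dyskinetic rats and fell by 0.54 ± 0.12 (adjusted p = 0.016). Itga8, the alpha subunit of a receptor for fibronectin and nephronectin, read 6.66, 6.54 and 6.61 against 6.97, 6.99 and 7.09 and fell by 0.42 ± 0.088 (adjusted p = 0.011). In none of the 8 called members did the dyskinetic and non-dyskinetic arrays overlap, which held for 18 of the 78 members and 23.6% of all genes tested. Without dyskinetic array 2 the count of called members was 4 in place of 8. Itga7, Cdh22, Cdh7 and Cdh13 passed whichever of the 6 arrays was left out, while the highest adjusted p without 1 array was 0.13 for Pcdh7, 0.079 for Cdh19, 0.068 for Itga8 and 0.059 for Pcdh20. With the median over probe sets in place of the mean, Cdh13 differed by -0.19 (adjusted p = 0.58), Cdh22 by 0.37 (adjusted p = 0.063), Cdh19 by -0.46 (adjusted p = 0.12) and Itga8 by -0.29 (adjusted p = 0.39), so these 4 lost their call, while Pcdh7 kept it at 0.55.

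**Figure D2:**
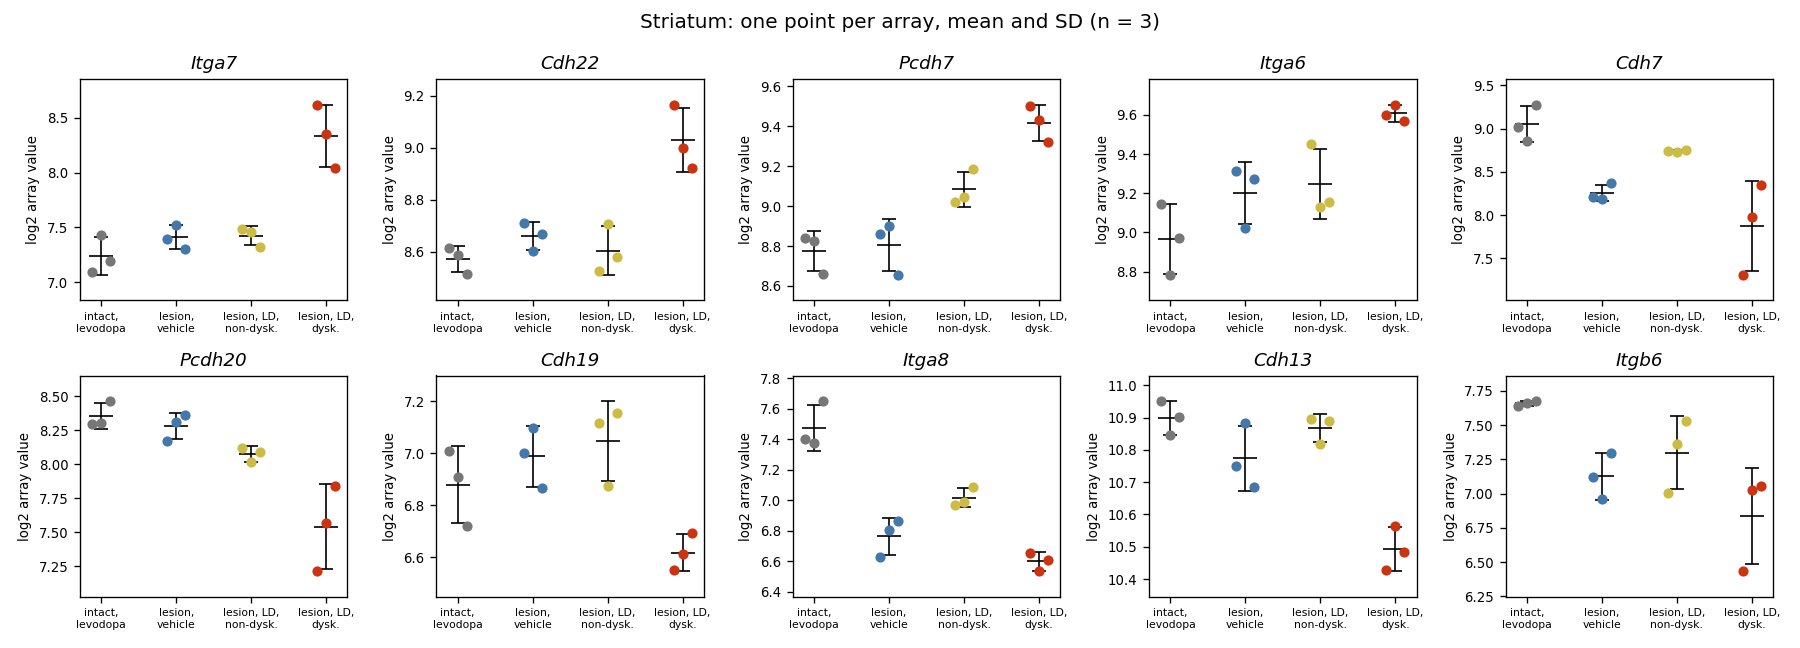
Log2 value in striatum of the 8 members called between dyskinetic and non-dyskinetic rats and of Itga6 and Itgb6, 1 point per array, with bars for the mean and SD of the 3 arrays of each of the 4 groups (LD is levodopa). Each panel has its own vertical scale, which does not start at 0. The 3 dyskinetic arrays are the highest of the 12 for Itga7, Cdh22, Pcdh7 and Itga6 and the lowest for Cdh13, Cdh19 and Pcdh20.

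Promoter windows are shown for 3 of these members, 1 that rose and 2 that fell, because their window lies at or across the annotated outer end of the gene. Each is the 250 bases before the start in RefSeq's table for GRCr8, read along the gene, 5′ to 3′, and all 3 genes lie on the minus strand. The window of Cdh22 is chr3:174389893-174390142, that of Itga8 is chr17:80410634-80410883 and that of Pcdh20 is chr15:70840299-70840548. Capitals mark a match to a searched motif.
Cdh22: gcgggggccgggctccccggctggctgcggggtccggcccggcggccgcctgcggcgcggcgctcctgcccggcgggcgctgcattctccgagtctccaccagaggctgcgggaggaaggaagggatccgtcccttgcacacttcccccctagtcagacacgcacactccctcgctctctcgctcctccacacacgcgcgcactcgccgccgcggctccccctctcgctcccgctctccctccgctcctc
Itga8: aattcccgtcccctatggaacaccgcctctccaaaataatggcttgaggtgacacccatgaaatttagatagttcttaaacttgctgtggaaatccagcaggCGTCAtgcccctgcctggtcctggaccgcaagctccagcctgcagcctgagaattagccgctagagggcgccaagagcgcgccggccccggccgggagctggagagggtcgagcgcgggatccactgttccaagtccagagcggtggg
Pcdh20: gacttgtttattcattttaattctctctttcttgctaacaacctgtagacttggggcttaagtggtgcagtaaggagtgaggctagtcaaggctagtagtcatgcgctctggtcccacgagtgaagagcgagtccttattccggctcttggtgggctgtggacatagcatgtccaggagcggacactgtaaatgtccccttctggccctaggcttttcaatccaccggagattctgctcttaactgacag
The motifs searched, on both strands, were the AP-1 site TGACTCA, the short cyclic AMP response element TGACG, the Nr4a site AAAGGTCA, the Egr site GCGTGGGCG and the E-box CACGTG. The Itga8 window holds 1 such element, read as CGTCA, and the other 2 windows hold no match. Of 27457 windows of this length 18.96% hold the short element, 3.981% the AP-1 site, 1.114% the Nr4a site, 0.5135% the Egr site and 5.795% the E-box. The windows of Cdh22, Itga8 and Pcdh20 hold 75.2%, 59.6% and 49.2% G and C.

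Over the 12 striatal arrays, the members whose pattern was most like that of Itga7 were Cdh22 (Pearson r 0.935), Pcdh7 (0.874) and Itga5 (0.799), the last a fibronectin receptor subunit. For Cdh7 they were Itgb6 (0.906), Itga8 (0.844) and Cdh11 (0.843). These are descriptions over 12 arrays and 78 members, and the arrays share their group structure and their normalisation. Pcdhb6, a clustered protocadherin, had the third largest striatal difference by size but did not pass (adjusted p = 0.17). Its arrays read 7.13, 7.25 and 7.18 in dyskinetic and 8.35, 7.99 and 7.25 in non-dyskinetic rats, which overlapped. The members most like it were Pcdhb19 (r 0.728), Cdh13 (0.512) and Pcdh18 (0.490).

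Other genes of both pathways were compared on the same dyskinetic and non-dyskinetic arrays, where 3.06% of all genes rose and 2.20% fell. None of 22 cadherin partners tested, which include catenins, the actin linker Vcl, Celsr and Fat cadherins and calsyntenins, passed the threshold, with a median of -0.13. Of 22 integrin ligands, Fn1, which encodes fibronectin, rose by 0.51 ± 0.10 and the matrix glycoprotein gene Reln by 0.44 ± 0.10, with a list median of 0.049. Of 20 integrin effectors, Tgfb1, whose latent product integrins bind, rose by 1.02 ± 0.16. The adhesion-site proteins Zyx and Vasp rose by 0.57 ± 0.11 and 0.30 ± 0.083, and the list median was -0.061.

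No gene of the marker lists for endothelium, mural cells, microglia, astrocytes, oligodendrocytes or striatal projection neurons passed in that comparison. The summed linear level of 9 microglia markers was 4897 to 6057 in dyskinetic and 4819 to 6387 in non-dyskinetic striatum, and that of 6 endothelial markers 2276 to 2491 and 2389 to 2636. For 6 astrocyte markers it was 18900 to 20204 and 17188 to 20811, and for 6 projection neuron markers 18231 to 18878 and 18680 to 20989. The sums of 6 oligodendrocyte markers, 14031 to 14468 and 14675 to 16258, did not overlap. Nor did those of 6 mural and fibroblast markers, 2287 to 2611 and 2682 to 2731. Of 4 dopamine neuron markers tested Th alone passed, and the list median was 0.082. Th rose by 1.15 ± 0.17 (adjusted p = 0.00092) in dyskinetic striatum, whose arrays read 7.77, 7.39 and 6.84 against 6.30, 6.02 and 6.23. Dyskinetic array 1 was the highest and array 3 the lowest of that group for Th, Itga7, Cdh22 and Pcdh7 alike. Of 5 choroid plexus markers Kl rose by 0.40 ± 0.089. The part of these genes in the member results was not tested.

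Dyskinetic against vehicle striatum compares rats with and without levodopa and dyskinesia, and it uses the same dyskinetic arrays as the comparison above. Again 8 of 78 members passed, where 5.18% of all genes did, with 4 higher (3.63% of all genes) and 4 lower (1.55%). Itga7 rose by 0.93 ± 0.12 (adjusted p = 0.00038), Pcdh7 by 0.61 ± 0.087 (adjusted p = 0.00057) and Cdh22 by 0.37 ± 0.079 (adjusted p = 0.012). Itga6, a second laminin-binding alpha subunit, read 9.60, 9.65 and 9.57 against 9.31, 9.02 and 9.27 and rose by 0.40 ± 0.11 (adjusted p = 0.044).

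Among the falls, Pcdh20 was the largest, at -0.74 ± 0.12 (adjusted p = 0.0016), with vehicle arrays at 8.17, 8.31 and 8.36. Cdh19 fell by 0.37 ± 0.10 (adjusted p = 0.037) and Cdh13 by 0.28 ± 0.073 (adjusted p = 0.037). Pcdhb19, a clustered protocadherin read by 1 probe set, fell by 0.34 ± 0.093 (adjusted p = 0.0478), from 9.47, 9.36 and 9.22 in vehicle to 9.04, 9.05 and 8.94 in dyskinetic rats. None of the 8 overlapped between the groups, as was so for 15 of 78 members and 23.0% of all genes. The count was 3 without dyskinetic array 1 or vehicle array 2 and 4 without dyskinetic array 2 or vehicle array 1, and Itga7, Pcdh7 and Pcdh20 passed with any of the 6 arrays left out. Of the oligodendrocyte markers Cldn11 and Mog fell in the same comparison, by 0.33 ± 0.086 and 0.27 ± 0.073. Of 4 dopamine neuron markers tested Th alone passed, rising by 0.74 ± 0.17, with a list median of 0.13. Of 6 striatal projection neuron markers Drd1 alone passed, rising by 0.35 ± 0.086, with a list median of -0.073. The choroid plexus marker Kl rose by 0.34 ± 0.089. The part of these marker genes in the member results was not tested.

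In the same comparison 3.63% of all genes rose and 1.55% fell. Of 22 cadherin partners 1 rose and 1 fell: the actin linker Vcl by 0.55 ± 0.089 and the giant cadherin Fat4 by 0.31 ± 0.082. Of 22 integrin ligands 4 rose, namely Reln (0.63 ± 0.10), Fn1 (0.42 ± 0.10), the leukocyte integrin ligand Icam1 (0.34 ± 0.090) and the laminin chain Lamb1 (0.34 ± 0.079). Of 20 effectors Tgfb1 rose by 1.01 ± 0.16 and Zyx by 0.50 ± 0.11.

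Non-dyskinetic against vehicle striatum, which sets levodopa without dyskinesia against no levodopa, gave no member past the threshold in limma, where 0.0322% of all genes passed. At an unadjusted p under 0.05 there were 5 of 78 members, and 6.70% of all genes. The highest statistics were those of Pcdh7 at 0.28 ± 0.087, Itga8 at 0.25 ± 0.088 and Cdh7 at 0.49 ± 0.18, with adjusted p of 0.53 to 0.68. Cdh7 read 8.21, 8.19 and 8.37 in vehicle and 8.74, 8.73 and 8.75 in non-dyskinetic striatum, and these did not overlap. The lowest were Pcdh10 at -0.22 ± 0.10, Pcdh8 at -0.23 ± 0.12 and Cdh4 at -0.27 ± 0.15, with adjusted p from 0.74 to 0.75. None of the 22 cadherin partners, 22 integrin ligands and 20 effectors passed.

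Against intact rats on levodopa, the average of the dyskinetic and non-dyskinetic groups differed in 7 of 78 members in striatum, where 3.49% of all genes passed. The 3 rises (2.20% of all genes) were Itga7 at 0.64 ± 0.11 (adjusted p = 0.0032), Pcdh7 at 0.47 ± 0.075 (adjusted p = 0.0022) and Itga6 at 0.46 ± 0.094 (adjusted p = 0.013). For Itga7 and Itga6 the lesioned and intact arrays overlapped. Over all members 9 of 78 did not overlap, beside 6.67% of all genes. The 4 falls (1.29% of all genes) were Cdh7 at -0.74 ± 0.16 (adjusted p = 0.016), Itga8 at -0.67 ± 0.076 (adjusted p = 0.00022), Itgb6 at -0.59 ± 0.13 (adjusted p = 0.023) and Pcdh20 at -0.55 ± 0.10 (adjusted p = 0.0077). Itgb6, the beta subunit that with the alpha v subunit activates latent TGF-beta, read 6.43, 7.02 and 7.06 in dyskinetic, 7.01, 7.36 and 7.53 in non-dyskinetic and 7.64, 7.66 and 7.67 in intact striatum. Means in dyskinetic, non-dyskinetic and intact striatum were 8.34, 7.42 and 7.24 for Itga7. In the same order they were 9.42, 9.08 and 8.78 for Pcdh7 and 9.61, 9.25 and 8.97 for Itga6. Among the falls they were 7.88, 8.74 and 9.05 for Cdh7, 6.60, 7.02 and 7.48 for Itga8, and 7.54, 8.08 and 8.36 for Pcdh20.

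Without intact array 3 that count was 3 in place of 7, and Itga7, Pcdh7 and Itga8 passed with any of the 9 arrays left out. Of the partners the giant cadherin Fat1 rose by 0.40 ± 0.10, where 2.20% of all genes rose and 1.29% fell. Of the ligands the laminin chains Lamb1 and Lamc1 rose by 0.36 ± 0.069 and 0.31 ± 0.081. Of the effectors Tgfb1 rose by 0.85 ± 0.14 and Vasp by 0.36 ± 0.072, and Tgfb2 fell by 0.38 ± 0.10.

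Vehicle rats were lesioned and had no levodopa, while intact rats had levodopa, so lesion and levodopa cannot be told apart between them. Vehicle against intact striatum left 1 of 78 members past the threshold, where 0.442% of all genes passed. It was Itga8, at 6.63, 6.80 and 6.86 in vehicle and 7.40, 7.38 and 7.65 in intact rats, a fall of 0.71 ± 0.088 (adjusted p = 0.0013) that held with any 1 array left out. Intact rats were thus highest in Itga8, non-dyskinetic rats next at 6.97, 6.99 and 7.09, and the vehicle and dyskinetic arrays overlapped below them. The next lowest statistics were those of Cdh7 at -0.79 ± 0.18 (adjusted p = 0.092) and Itgb6 at -0.53 ± 0.15 (adjusted p = 0.25). The highest were the leukocyte integrin subunit Itgb2 at 0.66 ± 0.18 (adjusted p = 0.21), Cdh12 at 0.36 ± 0.13 (adjusted p = 0.44) and Pcdh19 at 0.31 ± 0.12 (adjusted p = 0.46). No partner, ligand or effector passed. Of 6 striatal projection neuron markers Drd1 alone passed, falling by 0.50 ± 0.086, with a list median of -0.11. None of 9 microglia and macrophage markers passed, but their summed linear level was 5213 to 6359 in vehicle and 4257 to 4992 in intact striatum, without overlap. Their part in the member results was not tested.

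In the nigra, dyskinetic and non-dyskinetic rats differed in no member past the threshold in limma, where 0.241% of all genes did. At an unadjusted p under 0.05 there were 5 of 74 members, and 14.6% of all genes. The highest statistics were those of Itgb5 at 0.33 ± 0.10, the clustered protocadherin Pcdhb9 at 0.33 ± 0.10 and Cdh22 at 0.23 ± 0.079. The lowest were Cdh7 at -0.26 ± 0.11, Itga7 at -0.16 ± 0.077 and Pcdh17 at -0.20 ± 0.10, and adjusted p ran from 0.17 to 0.37 over these 6. Itga7 read 7.74, 7.73 and 7.64 in dyskinetic and 7.75, 7.92 and 7.92 in non-dyskinetic nigra, and the 12 nigral arrays spanned 7.64 to 7.98. None of the 21 cadherin partners, 22 ligands and 21 effectors tested in nigra passed.

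Dyskinetic against vehicle nigra gave 2 of 74 members past the threshold, both higher, where 2.22% of all genes passed, 0.764% higher and 1.46% lower. Cdh22 read 8.09, 8.26 and 8.19 against 7.95, 7.85 and 7.73, a difference of 0.33 ± 0.079 (adjusted p = 0.0484). Itgb5, a partner of the alpha v subunit in a vitronectin receptor, read 9.45, 9.36 and 9.54 against 8.98, 9.16 and 8.97, a difference of 0.41 ± 0.10 (adjusted p = 0.0499). Both adjusted p lie close to the threshold, and against vehicle array 2 alone, without arrays 1 and 3, no member passed. Cdh22 then still differed by 0.33 (adjusted p = 0.46) and Itgb5 by 0.29 (adjusted p = 0.71). Leaving out dyskinetic array 1, 2 or 3 or vehicle array 1 or 3 left 0 members, and leaving out vehicle array 2 left 6.

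The third highest statistic was that of Pcdh12, a protocadherin of endothelium, at 0.27 ± 0.081 (adjusted p = 0.090). The lowest were 3 gamma-cluster protocadherins: Pcdhga8 at -0.44 ± 0.11 (adjusted p = 0.0530), Pcdhgb7 at -0.60 ± 0.17 (adjusted p = 0.074) and Pcdhga12 at -0.62 ± 0.19 (adjusted p = 0.092). Of the pathway lists the flamingo cadherin Celsr1 fell by 0.91 ± 0.16, Reln by 0.66 ± 0.14 and Tgfb2 by 0.72 ± 0.11. They were 1 each of 21 partners, 22 ligands and 21 effectors, where 1.46% of all genes fell. Of 4 oligodendrocyte precursor markers Gpr17 alone passed, rising by 0.43 ± 0.082, and the list median was -0.057. Of 6 dopamine neuron markers Aldh1a1 alone passed, rising by 0.93 ± 0.17, with a list median of 0.56. The part of these marker genes in the member results was not tested.

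Non-dyskinetic against vehicle nigra gave no member past the threshold in limma, and 0.00% of all genes, and none without vehicle arrays 1 and 3. At an unadjusted p under 0.05 there were 10 of 74 members, and 8.03% of all genes. The lowest statistics were Pcdh20 at -0.53 ± 0.15, Pcdhgb7 at -0.52 ± 0.17 and the collagen receptor subunit Itga11 at -0.30 ± 0.11. The highest were Pcdh12 at 0.25 ± 0.081, Cdh18 at 0.15 ± 0.082 and the laminin receptor subunit Itga3 at 0.13 ± 0.078. Adjusted p ran from 0.43 to 0.70 over these 6. Itga11 has a nigral mean of 6.46, beside the floor of 6.44 for a test. It entered the test through its vehicle arrays, at 6.52, 6.44 and 6.89, of which array 3 is the highest.

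More members were called against intact rats in the nigra. Of 74 members 22 passed between levodopa-treated lesioned and intact nigra, where 12.5% of all genes passed. Of these 15 fell, against 8.48% of all genes, and 7 rose, against 4.05%. The falls took in 4 classical cadherins, Cdh13, Pcdh8, Itga3 and 8 clustered protocadherins, and the rises took in 4 integrins. The median member difference was -0.099, beside -0.0053 for all genes tested.

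Pcdh8, a protocadherin that neuronal activity induces at synapses, read 7.78, 7.94 and 8.05 in dyskinetic, 7.88, 7.85 and 7.60 in non-dyskinetic and 8.46, 8.73 and 8.67 in intact nigra, a fall of 0.77 ± 0.089 (adjusted p = 0.00012). Every lesioned array lay below every intact array, the vehicle ones at 7.87, 7.75 and 7.99 included. Cdh8, a type II cadherin of synapses, read 9.29, 9.18 and 9.31 in dyskinetic, 9.36, 9.26 and 9.61 in non-dyskinetic and 9.91, 10.04 and 9.91 in intact nigra and fell by 0.62 ± 0.078 (adjusted p = 0.00023). Of the other type II cadherins Cdh18 fell by 0.49 ± 0.071 (adjusted p = 0.00068), Cdh11 by 0.40 ± 0.075 (adjusted p = 0.0042) and Cdh22 by 0.33 ± 0.068 (adjusted p = 0.0068). Their lesioned arrays spanned 9.28 to 9.53, 10.14 to 10.37 and 7.85 to 8.26, and the intact ones 9.83 to 9.97, 10.60 to 10.73 and 8.36 to 8.43.

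Cdh13 read 10.93, 11.03 and 11.11 in intact nigra, above all 6 levodopa-treated lesioned arrays at 10.24 to 10.72, and fell by 0.54 ± 0.10 (adjusted p = 0.0035). Itga3, a laminin receptor subunit, read 9.42, 9.55 and 9.40 in intact nigra against 8.79 to 9.19 and fell by 0.44 ± 0.067 (adjusted p = 0.00096), with 26 of 27 probe sets lower. The intact arrays stood above the lesioned ones without overlap in both genes, and 22 of 74 members and 16.1% of all genes did not overlap in either direction.

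Of the clustered protocadherins Pcdhga2 fell by 0.55 ± 0.082 (adjusted p = 0.00085), from 9.13 to 9.54 in intact to 8.61 to 8.85 in lesioned nigra. The other 7 that fell did so by 0.30 to 0.59. They were Pcdha4 (-0.30 ± 0.084), Pcdhb15 (-0.34 ± 0.078), Pcdhb19 (-0.34 ± 0.089), Pcdhga3 (-0.35 ± 0.093), Pcdhga8 (-0.44 ± 0.092), Pcdhb2 (-0.53 ± 0.13) and Pcdhb3 (-0.59 ± 0.16). Pcdhb3, Pcdhb15 and Pcdhb19 are read by 1 probe set each, and Pcdhb2 and Pcdhb19 overlapped between the groups. Against these, Pcdhga10 rose by 0.33 ± 0.077 (adjusted p = 0.015) and Pcdhgc3 by 0.35 ± 0.11 (adjusted p = 0.0488), so the cluster did not move one way.

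The integrins that rose were Itgb2 at 0.38 ± 0.10 and Itgal at 0.32 ± 0.090, which together form a leukocyte receptor, and Itgav at 0.33 ± 0.087 and Itgb5 at 0.34 ± 0.085, which form a vitronectin receptor. Adjusted p ran from 0.021 to 0.033. Itgb2 read 8.59 to 9.02 in lesioned and 8.51, 8.18 and 8.48 in intact nigra. Pcdh7 rose by 0.19 ± 0.050 (adjusted p = 0.028). Without intact array 2 the count was 9, all of them falls: no rise passed. Cdh8, Cdh11, Cdh13, Cdh18, Cdh22, Itga3, Pcdh8 and Pcdhga2 passed with any of the 9 arrays left out.

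**Figure D3:**
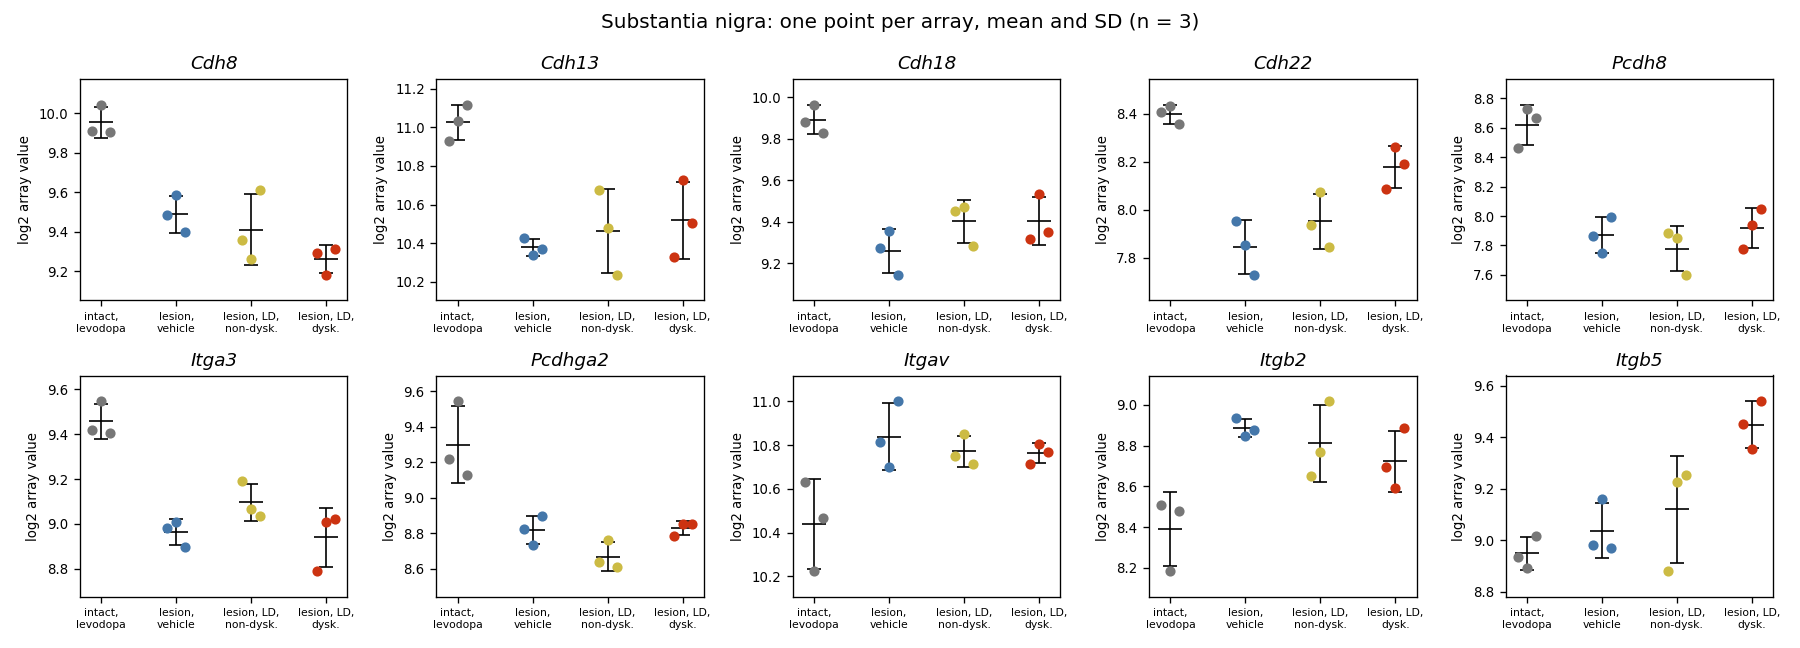
Log2 value in nigra of 10 members that passed between levodopa-treated lesioned and intact rats, 1 point per array, with bars for the mean and SD of the 3 arrays of each of the 4 groups (LD is levodopa). Each panel has its own vertical scale, which does not start at 0. The intact arrays of Pcdh8 read 8.46 to 8.73, above the 9 lesioned arrays at 7.60 to 8.05, while for Itgb5 intact and lesioned arrays overlap.

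Vehicle against intact nigra, where lesion and levodopa again cannot be told apart, uses the same 3 intact arrays. Of 74 members 18 passed, where 12.8% of all genes did, with 10 lower (7.26% of all genes) and 8 higher (5.52%). The groups did not overlap for 32 members, and for 32.7% of all genes. The largest falls were Pcdh8 at -0.75 ± 0.10 (adjusted p = 0.00048), Cdh13 at -0.65 ± 0.11 (adjusted p = 0.0029), Cdh18 at -0.63 ± 0.082 (adjusted p = 0.00034) and Cdh22 at -0.55 ± 0.079 (adjusted p = 0.00065). Itga3 (-0.50 ± 0.078), Pcdhga2 (-0.48 ± 0.10), Cdh8 (-0.47 ± 0.090), the type I cadherin Cdh4 (-0.47 ± 0.14), Pcdha4 (-0.32 ± 0.10) and Cdh11 (-0.28 ± 0.087) fell too, with adjusted p of 0.0014 to 0.0498. Pcdha4 again entered the test through its intact arrays, with its vehicle arrays near the floor.

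The rises of the vehicle group were largest in Pcdhga11 at 0.70 ± 0.15 (adjusted p = 0.010), Pcdhgc3 at 0.59 ± 0.12 (adjusted p = 0.0086) and Pcdh20 at 0.54 ± 0.15 (adjusted p = 0.037). Pcdhgc3, an isoform of the gamma cluster, read 11.80, 11.55 and 12.08 against 11.37, 11.01 and 11.28. Itgb2 (0.49 ± 0.11), Pcdhga10 (0.46 ± 0.089), Itgav (0.40 ± 0.10), Itga6 (0.25 ± 0.072) and Pcdh7 (0.20 ± 0.058) rose as well, with adjusted p of 0.0057 to 0.042.

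With vehicle array 2 alone, without arrays 1 and 3, 7 members passed and all were falls: Pcdh8, Cdh13, Pcdhga2, Cdh18, Cdh22, Itga3 and Cdh11. Pcdh20 then differed by 0.59 (adjusted p = 0.18), Pcdhga11 by 0.51 (adjusted p = 0.20) and Pcdhgc3 by 0.33 (adjusted p = 0.21), so the values of Pcdhgc3 were 0.33 and 0.59 without and with those arrays. Without intact array 2 the count was 8, with 1 rise, and without vehicle array 1 it was 11, with 4 rises, and without vehicle array 3 it was 13, with 5 rises. Pcdhga10 was the rise that passed with any 1 array left out. Pcdh8, Cdh13, Cdh18, Cdh22, Itga3 and Pcdhga2 passed under every alternative that gave a value.

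**Figure D4:**
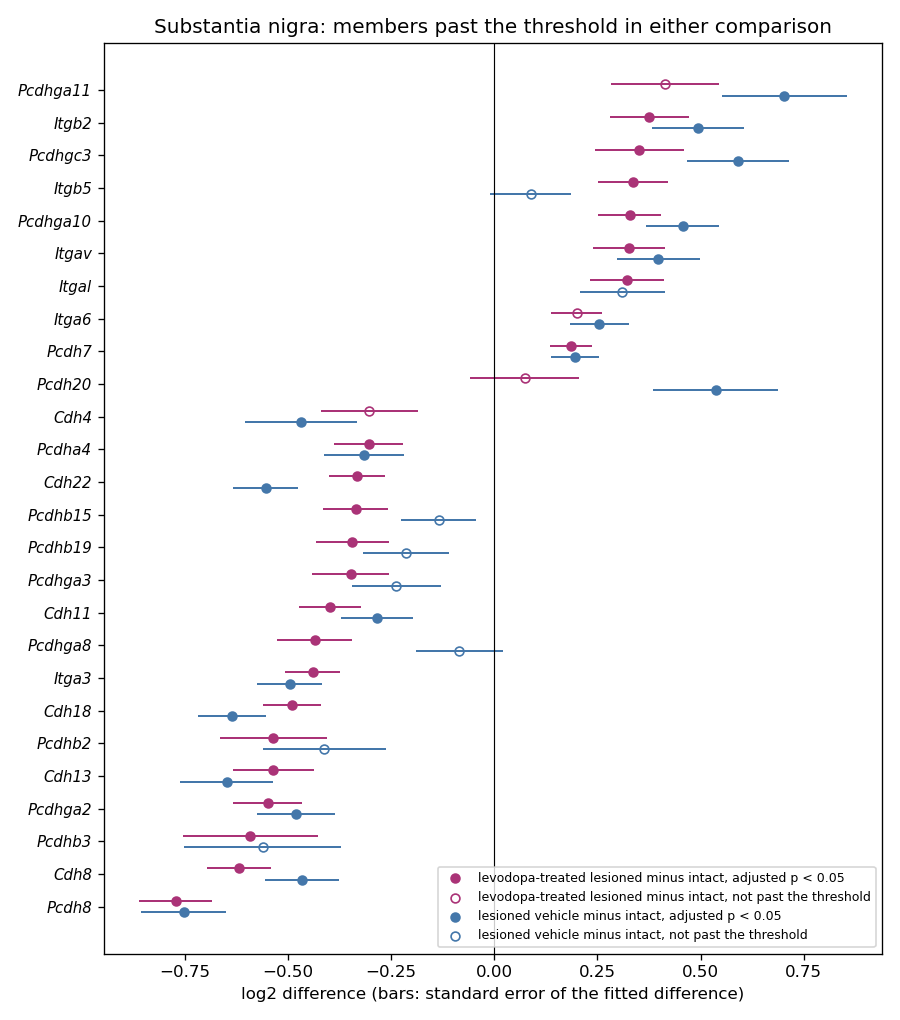
Log2 difference from intact nigra, with bars for the standard error, of the 26 members past the threshold in either comparison, for levodopa-treated lesioned rats in purple and vehicle rats in blue. Filled points have an adjusted p under 0.05. Both comparisons use the same 3 intact arrays, so likeness between them is partly built in, and Pcdh8 lies lowest in both, at -0.77 and -0.75.

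Marker genes of other cells moved in the same nigral comparisons. Of all genes 8.48% fell and 4.05% rose in levodopa-treated lesioned nigra, and 7.26% fell and 5.52% rose in vehicle nigra. All 6 dopamine neuron markers fell in both comparisons. Of 9 microglia and macrophage markers 4 rose in levodopa-treated lesioned nigra (C1qa, P2ry12, Ptprc and Cd68) and 2 in vehicle nigra, and their summed linear level was 6326 to 7065 in intact, 7801 to 8854 in dyskinetic, 7429 to 9942 in non-dyskinetic and 7547 to 8946 in vehicle nigra. Of the 6 endothelial markers 3 rose with levodopa-treated lesion, with sums of 2921 to 3404 in intact and 3156 to 3854 in both levodopa-treated lesioned groups. Of 6 oligodendrocyte markers 2 rose in each comparison, and the astrocyte marker Gfap rose in vehicle nigra by 0.43 ± 0.11. Of 4 oligodendrocyte precursor markers Gpr17 rose in levodopa-treated lesioned nigra by 0.48 ± 0.071, and Pdgfra and Cspg4 rose in vehicle nigra by 0.38 ± 0.11 and 0.25 ± 0.074. Drd2, a dopamine receptor listed here with striatal projection neurons, fell by 1.59 ± 0.15 in levodopa-treated lesioned and by 1.67 ± 0.17 in vehicle nigra, and Rora, of the thalamic and midbrain list, fell by 0.22 ± 0.052 in the former. The 7 T cell and neutrophil markers had sums of 374 to 417 on the 12 nigral arrays, and 1 of them was high enough to be tested and did not pass. The part of these cells in the member results was not tested.

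In levodopa-treated lesioned nigra 8.48% of all genes fell and 4.05% rose, and of 21 cadherin partners 5 fell and none rose. They were the synaptic calsyntenins Clstn2 (-1.04 ± 0.14), Clstn3 (-0.40 ± 0.059) and Clstn1 (-0.21 ± 0.049), the flamingo cadherin Celsr3 (-0.37 ± 0.087) and the neural catenin Ctnnd2 (-0.34 ± 0.063). In vehicle nigra Clstn2, Clstn3 and Ctnnd2 fell, by 1.03 ± 0.16, 0.42 ± 0.068 and 0.27 ± 0.073, and the catenin Ctnna3 rose by 0.58 ± 0.16. Of all genes 7.26% fell and 5.52% rose there.

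Of 22 integrin ligands in levodopa-treated lesioned nigra the laminin chain Lama5 fell by 0.33 ± 0.059 and the matrix protein Tnr rose by 0.25 ± 0.072, where 8.48% of all genes fell and 4.05% rose. In vehicle nigra Lama5 fell by 0.31 ± 0.068 and Lama2 rose by 0.34 ± 0.10, where 7.26% of all genes fell and 5.52% rose. Of 21 effectors 3 fell and 2 rose with levodopa-treated lesion, the largest being the actin cross-linker Actn1 at -0.76 ± 0.11, Tgfb1 at 0.33 ± 0.089, the integrin-associated protein Cd47 at -0.31 ± 0.053 and the talin Tln2 at -0.27 ± 0.080. In vehicle nigra 4 rose and 2 fell, with Tgfb2 at 0.63 ± 0.11, the kinase Ptk2b at 0.61 ± 0.19, Actn1 at -0.53 ± 0.12 and Tgfb1 at 0.47 ± 0.10 as the largest.

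Whether the 2 tissues responded differently was tested in 1 fit of 24 arrays that treated animals as random. The difference between dyskinetic and non-dyskinetic rats was larger in striatum than in nigra for Itga7, by 1.06 ± 0.14 (adjusted p = 0.00016), the 1 of 78 members that passed where 1.54% of all genes did. It was 0.91 ± 0.12 in striatum and -0.16 ± 0.077 in nigra. Of the other 7 members called in striatum none passed this test. The nearest were Cdh13, at -0.38 ± 0.073 in striatum and 0.06 ± 0.11 in nigra (adjusted p of the difference = 0.10), and Pcdh20, at -0.54 ± 0.12 and 0.14 ± 0.15 (adjusted p = 0.11). The next highest statistics were those of Itga6 at 0.38 ± 0.13 (adjusted p = 0.17) and Pcdh7 at 0.23 ± 0.10 (adjusted p = 0.34), and the third lowest was that of Pcdh18 at -0.36 ± 0.11 (adjusted p = 0.16). Itga7 passed with any of the 12 arrays left out. The count was 3 without striatal dyskinetic array 3, and 2 without striatal non-dyskinetic array 1, nigral dyskinetic array 1 or nigral non-dyskinetic array 1.

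The difference between levodopa-treated lesioned and intact rats was unlike in the tissues for 14 of 78 members, where 9.30% of all genes passed. In 8 of them it was higher in striatum than in nigra (6.60% of all genes) and in 6 lower (2.70%). Cdh8 differed most by p, at 0.73 ± 0.095 (adjusted p = 1.6e-05), with 0.11 ± 0.064 in striatum and -0.62 ± 0.078 in nigra. For Cdh22 the values were 0.25 ± 0.069 in striatum and -0.33 ± 0.068 in nigra, and for Itga7 0.64 ± 0.11 and -0.06 ± 0.067. Itga3 (0.46 ± 0.11), Cdh18 (0.46 ± 0.12), Pcdhb2 (0.46 ± 0.14), Pcdhga12 (0.61 ± 0.19) and Pcdh7 (0.29 ± 0.084) were also higher in striatum by this measure. Striatal means in dyskinetic, non-dyskinetic and intact rats were 9.03, 8.60 and 8.57 for Cdh22 and 8.34, 7.42 and 7.24 for Itga7. For these 2 genes the striatal side therefore comes mostly from the dyskinetic arrays.

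Lower in striatum than in nigra was the difference of Cdh7 between levodopa-treated lesioned and intact rats, by 0.86 ± 0.19. It was -0.74 ± 0.16 in striatum and 0.13 ± 0.095 in nigra. For Itga8 it was -0.67 ± 0.076 in striatum and 0.08 ± 0.15 in nigra, and for Pcdh20 -0.55 ± 0.10 and 0.07 ± 0.13. Itgb6 (-0.54 ± 0.16), Pcdh11x (-0.41 ± 0.11) and Itgb5 (-0.34 ± 0.10) made up the 6. Itgb6 entered this fit through striatum alone: its mean in nigra, 5.95, lies below the floor of 6.44 for a test there, so its nigral side is near background and its call reads the striatum alone. Adjusted p of the 14 differences ran from 1.6e-05 to 0.042. Without nigral intact array 2 the count was 7, and without striatal intact array 3 it was 8. Cdh8, Cdh22, Itga7, Itga8, Cdh7 and Itga3 passed with any of the 18 arrays left out.

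The 2 tissues appear to have been normalised apart, so their levels are set side by side as percentiles of a gene among all 16582 genes on an array, with no test. Of the 88 members 23 stood at a higher percentile in all 12 striatal than in all 12 nigral arrays, where 12.7% of all genes did, and 11 at a higher percentile in nigra, where 14.8% did. Of the 34 clustered protocadherins 16 were higher in striatum in this sense and 0 in nigra. The nigra-higher members were 4 classical cadherins, 3 integrin beta subunits, 2 non-clustered protocadherins, 1 integrin alpha subunit and 1 other cadherin.

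Cdh9, a type II cadherin of specific synapses, had a median percentile of 90.1 in striatum (80.0 to 92.5) and 47.2 in nigra (43.2 to 59.1). Pcdhb21 stood at 44.5 and 17.1, Pcdhb19 at 77.7 and 52.7, and Pcdhga3 at 74.4 and 49.9. Itgb6 stood at 41.1 in striatum and 17.9 in nigra, where it was among the members too low to be tested. In the other direction Cdh18 stood at 46.3 in striatum and 74.7 in nigra, Cdh19 at 36.0 and 61.8, and Cdh20 at 66.3 and 86.3. Itga7 stood at 44.7 in both, with a range of 39.0 to 65.8 in striatum and 42.4 to 48.0 in nigra.

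**Figure D5:**
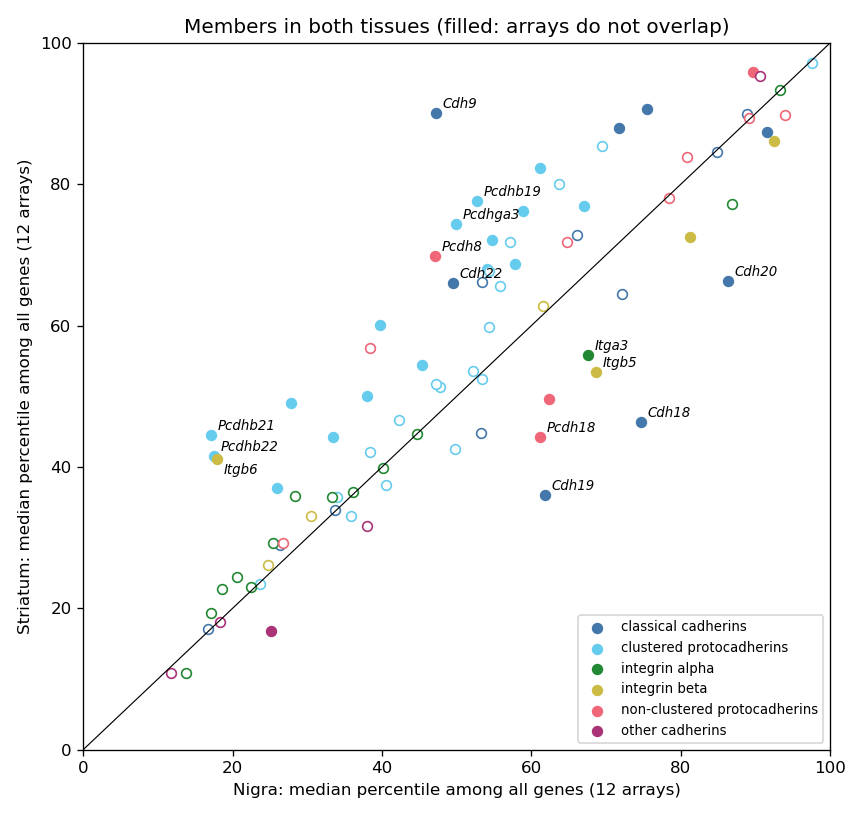
Median percentile of each of the 88 members among all genes on an array, with nigra on the horizontal and striatum on the vertical axis, coloured by subfamily and filled where the 12 arrays of the tissues do not overlap. Points above the diagonal stand higher in striatum, with Cdh9 farthest from it at 90.1 in striatum and 47.2 in nigra.

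By subfamily, the lowest and the highest of the members' mean log2 values over 12 arrays were as follows, though a probe set's brightness also depends on its sequence. Classical cadherins ran from 5.68 (Cdh1, the epithelial cadherin) to 10.23 (Cdh8) in striatum and from 5.98 (Cdh1) to 10.59 (Cdh2, the neural cadherin) in nigra. Other cadherins ran from 5.22 (Cdh17) to 10.76 (Cdh13) in striatum and from 5.42 to 10.60 (the same genes) in nigra. Non-clustered protocadherins ran from 6.46 (Pcdh12) to 10.92 (Pcdh1) in striatum and from 6.53 (Pcdh12) to 10.86 (Pcdh9) in nigra. Clustered protocadherins ran from 6.09 (Pcdhb1) to 11.22 (Pcdhgc3) in striatum and from 5.93 (Pcdhb22) to 11.54 (Pcdhgc3) in nigra. Integrin alpha subunits ran from 5.19 (Itga4) to 10.53 (Itgav) in striatum and from 5.62 to 10.70 (the same genes) in nigra. Integrin beta subunits ran from 6.29 (Itgb7) to 9.83 (Itgb8) in striatum and from 5.95 (Itgb6) to 10.61 (Itgb8) in nigra.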

How the data were processed

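RNA of striatal and nigral punches was read on Affymetrix exon arrays, per the labels' protocols. The deposited values are log2 values made by the authors with RMA in oligo 1.34 under R 3.2.3, per the submitters' processing notes. Genome build and annotation are not given in the sources used here. Of 213067 probe sets 172924 name 1 gene in the array's annotation, and the mean over these is a gene's value. Symbols were brought up to date with RefSeq's genes of GRCr8 (12878 current, 3700 updated, 55 kept), which gave 16582 genes. Array medians of gene values were 7.71 to 7.78 in striatum and 8.05 to 8.16 in nigra.

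The lowest 25% of genes by mean over a tissue were left out. limma 3.58.1 in R 4.3.3 was fitted with lmFit and eBayes to the 4 group means of a tissue. Differences between tissues were fitted over 24 arrays and 12758 genes, with animals as a random effect (duplicateCorrelation, 0.148). p-values were Benjamini-Hochberg adjusted over all genes tested. Replicates are separate animals, and the number of arrays limits the precision. On simulated data 65.3% to 90.2% of changes of 0.5 were recovered within a tissue, and 33.9% and 72.9% in the tissue differences of dyskinetic against non-dyskinetic and of lesioned against intact rats. Of changes of 0.3, 13.7% to 46.8% were recovered within a tissue, and 3.92% and 12.8% in these tissue differences. The share of simulated calls that were false ran from 1.85% to 8.74%. The simulations changed the same number of genes in every comparison and drew noise independently for each array. These rates therefore need not hold in the real comparisons.

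Members and lists were chosen with earlier results of these data known. Named are all called members, the 3 highest and 3 lowest statistics where fewer than 5 passed, the level extremes by subfamily, up to 4 called genes per pathway list, and Th, Slc6a3, Drd1 and Ppp1r1b. Clstn1, called beyond those 4, was named after its values were seen, as were marker genes and the members in the observations at the end. RefSeq's promoter file held 68 of the 88 members, Itga7 and Cdh13 not among them. The alternatives tried were another gene value, filter, variance, array weighting, scaling, replicate block and set of arrays.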

Additional observations from a re-analysis of the deposited data

Results flagged for a closer look

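The striatal and nigral differences were apart in 15 member results at an adjusted p under 0.05 in limma over 24 arrays, the test of the difference itself. For dyskinetic against non-dyskinetic rats, Itga7 differed by 1.06 ± 0.14 between striatum and nigra, higher in all 3 dyskinetic than in all 3 non-dyskinetic arrays in striatum and lower in all 3 in nigra.

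For levodopa-treated lesioned against intact rats, the striatal minus the nigral difference was 0.73 ± 0.095 for Cdh8, 0.69 ± 0.13 for Itga7, 0.61 ± 0.19 for Pcdhga12 and 0.57 ± 0.088 for Cdh22. It was 0.46 ± 0.11 for Itga3, 0.46 ± 0.14 for Pcdhb2, 0.46 ± 0.12 for Cdh18 and 0.29 ± 0.084 for Pcdh7. It was -0.86 ± 0.19 for Cdh7, -0.76 ± 0.16 for Itga8, -0.64 ± 0.17 for Pcdh20 and -0.54 ± 0.16 for Itgb6, whose nigral mean of 5.95 is below the floor of 6.44 for a test in nigra, so that this value reads the striatum alone. It was -0.41 ± 0.11 for Pcdh11x and -0.34 ± 0.10 for Itgb5. Pcdhb2 lost its call under 18 of 25 alternatives and Pcdhga12 under 13 of 25. Itga7 is counted in both comparisons, which share the dyskinetic and non-dyskinetic arrays. Its striatal rise and that of Cdh22 against intact rats come mostly from the dyskinetic arrays. Nigral punches of intact and lesioned rats also differ in all 6 dopamine neuron markers, and the part of this in the 14 differences was not tested.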

How the results depend on the processing

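Of 81 calls of named members 27 held under every alternative that gave a value. Over 1945 alternative values of 113 named differences, 1654 kept their direction and side of the threshold, 268 lost a call, 20 gained one and 3 turned. With the median over probe sets in place of the mean, Pcdh7 turned to -0.021 (adjusted p = 0.92) in vehicle against intact nigra and to -0.037 in non-dyskinetic against vehicle striatum, and Itga3 to -0.010 in non-dyskinetic against vehicle nigra. Of 109 counts under settings that keep all arrays or leave out a chosen pair, 88 stayed within 1.5 times. The cause of the other changes was not tested.

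With the median over probe sets the count was 5 for dyskinetic against non-dyskinetic striatum, 4 for dyskinetic against vehicle striatum, 3 for lesioned on levodopa against intact striatum, 0 for dyskinetic against vehicle nigra and 7 for the tissue difference of lesioned on levodopa against intact. With the lowest 50% of genes left out, which removes low members from the test, it was 5 for dyskinetic against non-dyskinetic striatum, 0 for vehicle against intact striatum and 0 for the tissue difference of dyskinetic against non-dyskinetic. With array weights it was 4 for vehicle against intact and 14 for lesioned on levodopa against intact striatum, 16 for dyskinetic against vehicle nigra and 34 for vehicle against intact nigra. Dyskinetic against vehicle nigra also fell to 0 with no filter, with only the compared groups in the fit, and without vehicle arrays 1 and 3. Vehicle against intact nigra gave 7 without those arrays. That setting, chosen after seeing the data, leaves 1 vehicle array. Vehicle against intact striatum gave 3 with only the compared groups and 0 with symbols as deposited, under which Itga8 is not a member; that setting too was chosen after seeing the data.

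Over 18 same-numbered pairs in each tissue the deviations correlated by -0.22 to 0.365 in striatum and -0.246 to 0.235 in nigra. The means were 0.0683 and 0.0288, beside -0.0346 and -0.0145 for pairs of unlike number. Any pairing by replicate number was thus weak on average, and it was not tested. With the replicate number as a block the count was 11 for lesioned on levodopa against intact striatum, 3 for vehicle against intact striatum and 0 for dyskinetic against vehicle nigra, and the other counts stayed within 1.5 times.

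Leaving out each array in turn gave 4 to 10 members for dyskinetic against non-dyskinetic striatum, 3 to 7 against vehicle, 0 for non-dyskinetic against vehicle, 3 to 10 for lesioned on levodopa against intact and 1 for vehicle against intact. In nigra it gave 0, 0 to 6, 0, 9 to 21 and 8 to 20 in the same order. The tissue differences gave 1 to 3 and 7 to 15. Signal limits the 10 members too low to be tested.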

Other observations

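Values of 2 clustered protocadherins, chosen after they were seen, are set out here by rat. The tissues appear normalised apart, so a rat's place among the others in each tissue is what can be compared. Pcdhb6, with 1 of the widest spreads in striatum, read 8.35 in striatum and 8.17 in nigra of non-dyskinetic rat 1, 8.11 and 8.17 in vehicle rat 1, 7.99 and 7.67 in non-dyskinetic rat 2, and 7.95 and 7.76 in intact rat 3. In the other 6 rats that gave both tissues it read 6.94 to 7.29 in striatum and 7.06 to 7.40 in nigra. Pcdhga1 read 10.05 in striatum and 8.89 in nigra of intact rat 2, against 6.17 to 8.06 and 6.45 to 7.51 on all other arrays.

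The array carries 4 probe sets assigned to all alpha-cluster protocadherins together, which the member values leave out. They read 9.36, 9.50 and 9.45 in intact nigra, above all 9 lesioned nigral arrays, which ran from 8.75 to 9.17. In striatum all 12 arrays lay between 9.44 and 9.66. The 4 probe sets assigned to all gamma-cluster protocadherins read 12.46 to 12.52 in vehicle nigra and 12.20 to 12.43 on the other 9 nigral arrays.

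Nigral vehicle array 3 also stood apart in epithelial adhesion genes. It read 7.40 for Cdh1 and 8.37 for Itgb4, against 5.74 to 6.01 and 6.71 to 6.94 on the other 11 nigral arrays.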
